A study of Homo sapiens with 6 samples.

Results

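The epithelial to mesenchymal transition (EMT) switch genes are 10 genes that are widely used to read the state of an epithelial cancer cell: the cadherins CDH1 and CDH2, the transcription factors SNAI1, SNAI2 and ZEB1, the mesenchymal genes VIM and FN1, and the tight junction genes TJP1, OCLN and CLDN1. They were chosen by their symbols, which each match 1 of the 20332 genes in the count table. RNA-seq was performed on Huh-7 cells, an established line of human hepatocellular carcinoma (HCC). The 3 RAC3 samples came from cells with stable overexpression of RAC3, a Rac family small GTPase, and the 3 negative controls (NC) came from the matching control cells, whose genotype the labels give as WT. The overexpressing line was made with a lentivirus. The sources used here do not say what virus the controls carried or whether a line was 1 clone. The samples of a group are described as independent RNA samples, not as separate cultures, so the p-values below measure the spread between these samples, which may be technical. The genotype labels of RAC3 samples 2 and 3 give another number after RAC, and the titles were followed.

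In EMT, epithelial cells loosen their junctions and take on a motile, spindle-like form. The zinc finger repressors of the SNAI and ZEB families bind E-box letters in DNA and lower junction genes such as E-cadherin, and the cadherin switch from E-cadherin to N-cadherin, a rise in the filament protein vimentin and the deposition of fibronectin accompany the change. In the liver, hepatocytes themselves secrete fibronectin into plasma and carry N-cadherin beside E-cadherin, so neither marks mesenchymal cells alone. RAC GTPases control actin at cell contacts and at the leading edge.

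RAC3 itself had 35.6, 31.4 and 32.8 CPM (counts per 1000000 of the library total, which TMM factors adjusted for composition) in the negative controls 1, 2 and 3, and 232.6, 239.6 and 225.4 CPM in the RAC3 samples. RAC3 samples 2 and 3, whose genotype labels differ, thus had RAC3 RNA at a level close to that of sample 1. Total counts lay between 13855762 and 18199888 per sample. Hepatocyte and Huh-7 marker genes were present, with ALB at 1540.9 ± 75.3, AFP at 187.9 ± 9.05 and HNF4A at 53.1 ± 2.66 FPKM (fragments per kilobase of transcript, scaled to library size) in the negative controls (SD, n = 3). Of the other cell types that were checked, TEK, ERG, MS4A1 and THY1, markers of endothelial cells, B cells and fibroblasts, had 0 counts in all 6 samples. Other markers of the same lists were counted. In the negative controls the fibroblast and stellate cell markers summed to 240.8 to 257.4 CPM and the leukocyte markers to 43.3 to 50.7 CPM. A count of 0 allows up to 3 counts, or between 0.165 and 0.217 CPM in these libraries, for counting error only.

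With RAC3 overexpression, RNA of CDH2 (N-cadherin) was higher while RNA of CDH1 (E-cadherin) was not detectably changed. RNA of the mesenchymal genes FN1 and VIM was lower. RNA of OCLN, which encodes the tight junction protein occludin, was higher, but this call was lost with the GC trend of each library removed. CDH2 was 1.47 times the negative control, OCLN 1.19 times, VIM 0.805 times and FN1 0.742 times. These 4 of the 9 members tested had a Benjamini-Hochberg adjusted p below 0.05, 2 of them higher and 2 lower, and at that threshold 28.5% of all 12941 genes tested were called, 13.3% higher and 15.3% lower. Under the study's own thresholds, an unadjusted p below 0.05 together with a change of more than 1.5 times up or down, none of the 9 members tested with edgeR was called, against 4.68% of all genes tested (1.68% higher and 2.99% lower). With the adjusted p and the fold threshold together 0 members and 3.55% of all genes were called. The study's thresholds also left 0 members with DESeq2, with limma-voom and with edgeR's exact test. An unadjusted p below 0.05 alone was reached by 6 of the 9 and by 39.2% of all genes tested. For 5 of the 9 the samples of one group lay entirely above those of the other, 2 higher and 3 lower with RAC3, which was also so for 42.5% of all genes tested. SNAI2 had too few counts to pass the filter of this fit.

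**Figure D1:**
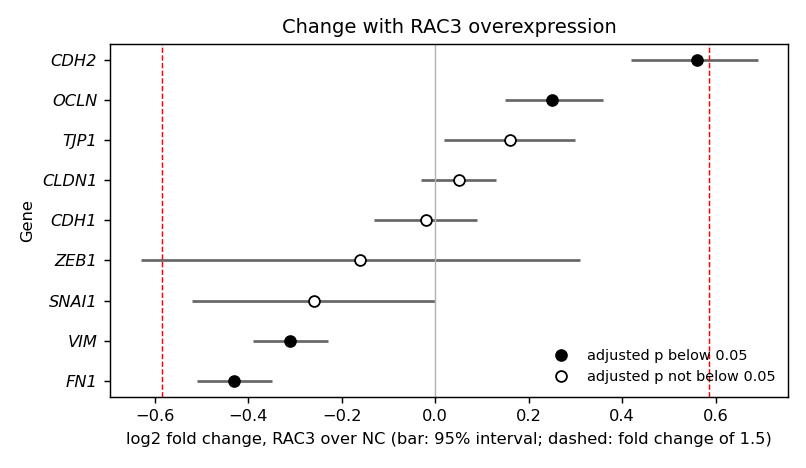
The log2 fold change of RAC3 over NC (x axis) for the 9 EMT switch genes tested (y axis), with its 95% interval as a bar and dashed lines at a fold change of 1.5 in either direction. Filled points, CDH2, OCLN, VIM and FN1, have an adjusted p below 0.05, and all points lie between the dashed lines.

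The levels of the 10 genes spanned a wide range within the same cells. FPKM divides by transcript length and so allows genes to be compared with each other. In the negative controls the median was 1067.8 FPKM for VIM, 803.5 for FN1, 349.2 for CLDN1 and 47.4 for CDH1. It was 22.1 for OCLN, 17.5 for TJP1, 11.5 for CDH2, 6.19 for SNAI1, 0.704 for ZEB1 and 0.24 for SNAI2. In this order no gene's range over the 3 samples overlapped that of its neighbour, in the negative controls or in the RAC3 samples. Huh-7 cells held the mesenchymal genes VIM and FN1 at levels above 99.5% and 99.3% of the genes tested, together with the epithelial genes CLDN1 and CDH1, which stood above 98.4% and 85.5%. ZEB1 stood above 8.83%. In RNA from whole cultures, a change in the share of cells that express a gene and a change of RNA per cell cannot be told apart.

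**Figure D2:**
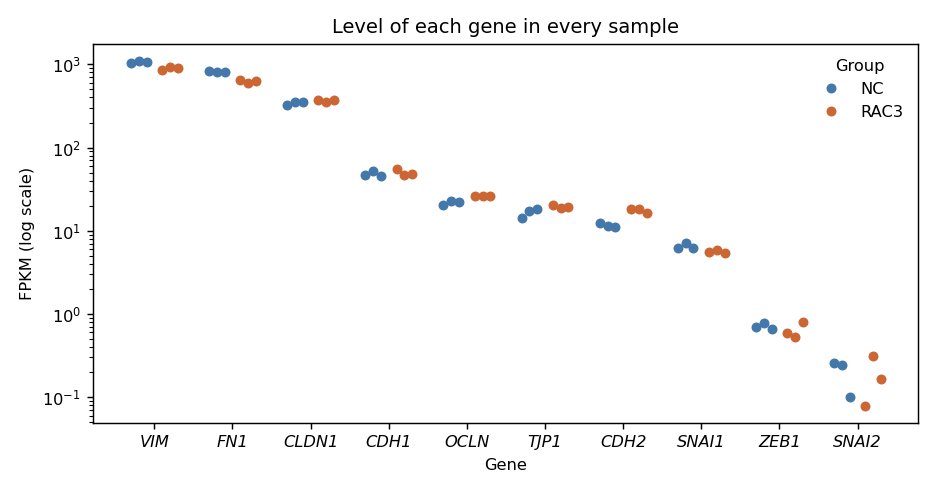
FPKM on a log scale (y axis) of each of the 10 genes (x axis) in the 3 NC and 3 RAC3 samples, 1 point per sample. VIM, with an NC median of 1067.8 FPKM, and FN1, with 803.5, lie highest, and ZEB1 and SNAI2, with 0.704 and 0.24, lowest.

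The E-box letters searched here, which SNAI and ZEB factors recognize, were CAGGTG on one strand and CACCTG on the other. Other forms of the E-box were not searched. The letters were searched in the 250 bases before each RefSeq transcript start (build GRCh38.p14), where 7 of the 10 members had 18 windows. CDH1, SNAI1 and SNAI2 had no window in the sequences used and were not searched. The letters were found in 5 windows of 3 members, OCLN, TJP1 and ZEB1, and in none of the windows of CDH2, FN1, VIM and CLDN1. Across the genome, 17.5% of such windows and 20.6% of genes hold them, so the share among the members is a description only. The stretches of 30 bases around each match are shown because their letters are those that the SNAI and ZEB repressors recognize. The E-box is in capitals and each sequence runs 5′ to 3′ on the strand of the gene.
OCLN, chr5:69492502-69492531, plus strand: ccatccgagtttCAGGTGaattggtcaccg
OCLN, second start, chr5:69492645-69492674, plus strand: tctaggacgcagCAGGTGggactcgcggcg
TJP1, chr15:29969120-29969149, minus strand: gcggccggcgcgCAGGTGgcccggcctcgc
ZEB1, chr10:31318348-31318377, plus strand: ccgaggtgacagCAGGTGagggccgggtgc
ZEB1, a later start, chr10:31318966-31318995, plus strand: ccccaccaCACCTGaggaaaacttttccct
ZEB1, the same start, chr10:31319119-31319148, plus strand: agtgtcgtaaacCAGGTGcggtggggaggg
The first OCLN match begins 33 bases before its transcript start, and the one at the second start 133 bases before. The TJP1 match begins 88 bases before its start, and those of ZEB1 57, 242 and 85 bases before theirs. Nothing in the data shows whether a factor was bound at these letters.

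The cadherins were examined first, since the ratio of E-cadherin to N-cadherin is the usual measure of the switch. CDH2 (ENSG00000170558, GRCh38 chromosome 18 from 27950966 to 28177446 in GENCODE release 29) encodes N-cadherin, which joins cells to like cells through calcium-dependent contacts. It had 43.6, 40.8 and 39.8 CPM in the negative controls and 63.3, 62.1 and 56.4 CPM in the RAC3 samples. All RAC3 samples lay above all controls, by more than the spread within either group. The mean rose from 41.4 ± 1.97 to 60.6 ± 3.7 CPM (SD, n = 3 per group), with a log2 fold change of 0.56 and a standard error of 0.0666 (adjusted p = 6.27e-06 in edgeR's quasi-likelihood test). The 95% interval of the fold ran from 1.33 to 1.62, on both sides of the threshold of 1.5. That threshold lies at 0.58 in log2 units, and CDH2 passed it without negative control 1, at 0.59, without RAC3 sample 3, at 0.60, and with library size alone as the scaling, at 0.61.

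CDH1 (ENSG00000039068, chromosome 16 from 68737225 to 68835548) encodes E-cadherin, the adhesion molecule whose loss defines the full transition. It had 217.9, 231.9 and 209.1 CPM in the negative controls and 231.8, 206.3 and 211.9 CPM in the RAC3 samples. The groups overlapped throughout. On the log2 scale the difference was -0.02 with a standard error of 0.0514 (adjusted p = 0.822 in the same edgeR test), and its sign turned with library size scaling, at 0.04, and without negative control 2 or RAC3 sample 2, at 0.02 each. The 95% interval of the fold ran from 0.916 to 1.06, so a change beyond that range was not seen in these samples.

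Per length, CDH1 stayed above CDH2 in every sample. The ratio of CDH1 to CDH2 FPKM was 3.85, 4.56 and 4.11 in NC and 2.97, 2.62 and 2.97 with RAC3. Each RAC3 sample had a lower ratio than each control. On the log2 scale, with 0.1 FPKM added to each gene, the mean ratio went from 2.05 ± 0.123 to 1.51 ± 0.104 (SD, n = 3 per group), a difference of -0.54. The two-sided exact permutation test over samples gave p = 0.1, the smallest that 3 samples against 3 can give. The means of CDH1 in the 2 groups were 48.6 ± 3.49 and 50.2 ± 3.93 FPKM, and those of CDH2 were 11.7 ± 0.603 and 17.6 ± 1.11 FPKM (SD, n = 3 per group).

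**Figure D3:**
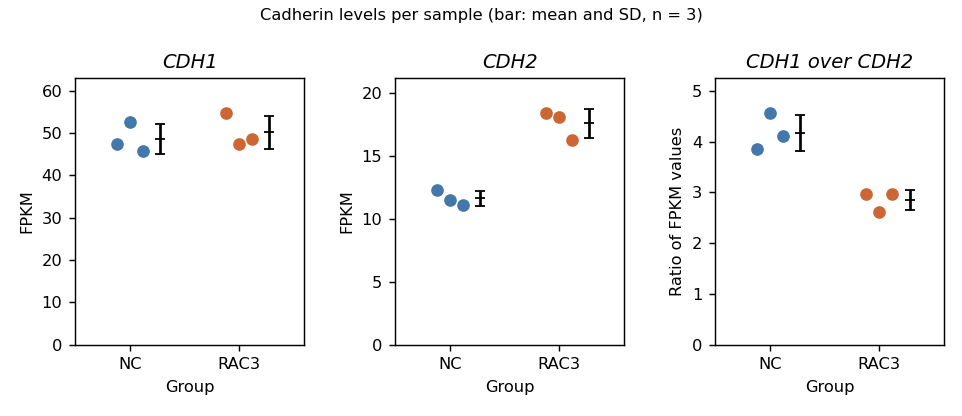
FPKM of CDH1 and CDH2 and the ratio of CDH1 to CDH2 FPKM (y axes, starting at 0) in NC and RAC3 samples, with 1 point per sample and the mean and SD (n = 3) beside them. CDH1 overlaps between the groups, CDH2 is higher in all RAC3 samples, and the ratio is 3.85 to 4.56 in NC against 2.62 to 2.97 in RAC3.

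The mesenchymal genes went the other way from CDH2. FN1 (ENSG00000115414, chromosome 2 from 215360440 to 215436172) encodes fibronectin, a matrix glycoprotein that integrins bind and that the liver also releases into plasma. It had 6400.7, 6073.1 and 5988.2 CPM in the negative controls and 4712.9, 4394.6 and 4596.5 CPM in the RAC3 samples. The groups were far apart relative to their spread. The mean fell from 6154.0 ± 217.8 to 4568.0 ± 161.1 CPM (SD, n = 3 per group), with a log2 fold change of -0.43 and a standard error of 0.0365 (adjusted p = 1.01e-07 in edgeR's quasi-likelihood test), with a 95% interval of the fold from 0.704 to 0.783. By p-value, FN1 ranked 33 among all genes tested, the highest of the members. With the GC trend of each library removed the log2 fold change was -0.54, still short of the fold threshold.

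VIM (ENSG00000026025, chromosome 10 from 17228259 to 17237593) encodes vimentin, the intermediate filament of mesenchymal cells that many cancer cell lines also express. It had 2007.6, 2068.2 and 2016.2 CPM in the negative controls and 1543.2, 1705.4 and 1654.5 CPM in the RAC3 samples. All RAC3 samples lay below all controls. The mean fell from 2030.6 ± 32.8 to 1634.4 ± 82.9 CPM (SD, n = 3 per group), with a log2 fold change of -0.31 and a standard error of 0.0389 (adjusted p = 8.73e-06 in edgeR's quasi-likelihood test), and the interval of the fold ran from 0.761 to 0.851. GENCODE lists the antisense gene VIM-AS1 over part of VIM, and genes on the opposite strand also overlap CDH1, CDH2, TJP1, OCLN and ZEB1. Whether counting used strand is not given in the sources used here, so reads of such partners cannot be told apart from the gene's own.

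The junction genes TJP1, OCLN and CLDN1 build the seal between neighbouring epithelial cells. OCLN (ENSG00000197822, chromosome 5 from 69492292 to 69558104) encodes occludin, a membrane-spanning component of that seal. It had 90.8, 93.9 and 92.0 CPM in the negative controls and 107.6, 110.5 and 111.7 CPM in the RAC3 samples. The groups did not overlap, and the samples of each group lay close together. The mean rose from 92.2 ± 1.58 to 109.9 ± 2.11 CPM (SD, n = 3 per group), with a log2 fold change of 0.25 and a standard error of 0.0503 (adjusted p = 0.000958 in the same edgeR test). With the GC trend of each library removed, the log2 fold change was 0.11 and the adjusted p was 0.11, so this call was lost.

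TJP1 (ENSG00000104067, chromosome 15 from 29699367 to 29968865) encodes the scaffold protein ZO-1, which ties occludin and the claudins to actin. It had 79.4, 96.8 and 94.2 CPM in the negative controls and 104.7, 95.7 and 101.6 CPM in the RAC3 samples. Negative control 1 was the lowest of the 6 samples, and RAC3 sample 2 lay within the range of the controls. The log2 fold change was 0.16 with a standard error of 0.0659 (adjusted p = 0.0813 in edgeR's quasi-likelihood test), and without negative control 1 it was 0.07 with an adjusted p of 0.4. With library size alone as the scaling it was 0.21, with an adjusted p of 0.021.

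CLDN1 (ENSG00000163347, chromosome 3 from 190305701 to 190322475) encodes claudin 1, which forms the paired strands of the tight junction. It had 1150.8, 1227.1 and 1221.1 CPM in the negative controls and 1268.3, 1203.5 and 1251.5 CPM in the RAC3 samples. The groups overlapped. The log2 fold change was 0.05 with a standard error of 0.038 (adjusted p = 0.365 in the same edgeR test), the 95% interval of the fold ran from 0.979 to 1.09, and the sign turned with the GC trend removed, at -0.07.

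**Figure D4:**
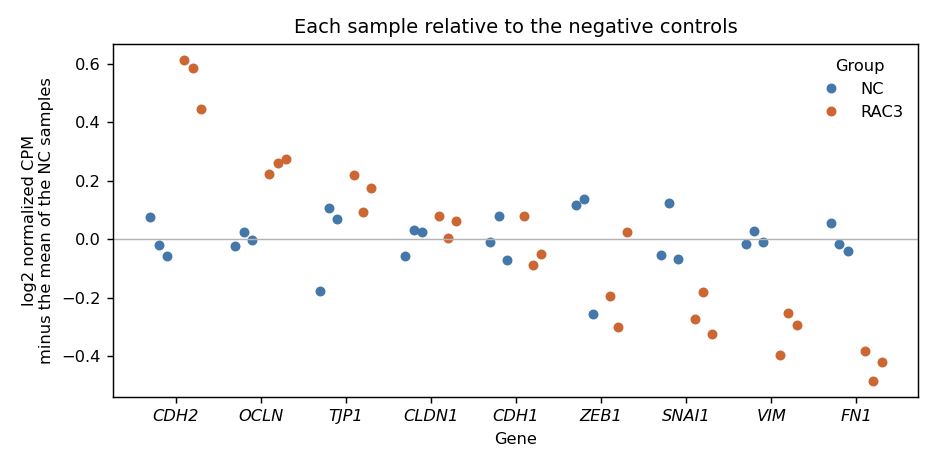
The log2 normalized CPM of each sample minus the mean of the NC samples (y axis) for the 9 genes tested (x axis), 1 point per sample. The groups are apart for CDH2 and OCLN, higher in RAC3, and for SNAI1, VIM and FN1, lower in RAC3, and they overlap for TJP1, CLDN1, CDH1 and ZEB1.

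Of the transcription factors, SNAI1 (ENSG00000124216, chromosome 20 from 49982999 to 49988886), a repressor of E-cadherin that is induced early in EMT, was the most abundant. It had 10.8, 12.3 and 10.7 CPM in the negative controls and 9.29, 9.9 and 8.94 CPM in the RAC3 samples, from 151, 184 and 192 counts and from 165, 163 and 126 counts. All RAC3 values lay below all controls. The log2 fold change was -0.26 with a standard error of 0.124 (unadjusted p = 0.0475, adjusted p = 0.122 in edgeR's quasi-likelihood test), so the difference did not pass after adjustment over all genes. The interval of the fold ran from 0.697 to 0.998, and with the GC trend of each library removed the log2 fold change was -0.13.

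ZEB1 (ENSG00000148516, chromosome 10 from 31318495 to 31529814), a repressor held in check by the miR-200 family in epithelial cells, was counted 55, 60 and 54 times in NC and 56, 48 and 52 times with RAC3. The groups overlapped. The difference was -0.16 on the log2 scale with a standard error of 0.225 (adjusted p = 0.629 in the same edgeR test), with an interval of the fold from 0.645 to 1.24, the widest of the members tested. SNAI2 (ENSG00000019549), the relative of SNAI1 that carries later steps of EMT in many tissues, was counted 8, 8 and 4 times in NC and 3, 8 and 5 times with RAC3. It was below the filter on low counts. When every gene with a count was kept, its log2 fold change was -0.38 (adjusted p = 0.77, edgeR).

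FN1 had the smallest p-value of the members, and the genes whose pattern over the 6 samples lay closest to it were sought among the 11130 other genes whose mean count was 50 or more. The distance was the root mean square difference of log2 CPM after each gene was centred on its own mean. The closest were RAB11FIP4, BCAM and ABLIM3, at distances of 0.0221, 0.0254 and 0.0299. BCAM, a laminin-binding adhesion protein, went from 386.2 ± 11.8 to 287.4 ± 3.33 CPM (SD, n = 3 per group), and its log2 fold change, -0.43, equalled that of FN1. With so many genes compared over 6 samples that fall into 2 groups, close neighbours are found for most patterns, and the names are given as a description.

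Wider lists of EMT-related genes, written from general knowledge, set the members in their pathway. Of 18 EMT transcription factors, SNAI1, SNAI2 and ZEB1 included, 4 had 0 counts in all samples, among them TWIST1 and TWIST2 (named after their values were seen), and 12 were tested. With an adjusted p below 0.05, 0 of the 12 were higher and 5 lower (SNAI3 and, named after their values were seen, TEAD2, PRRX1, SOX9 and TCF3), and the median log2 fold change was -0.18, against 0.00 for all genes tested. Of all genes tested, 13.3% were higher and 15.3% lower at that threshold. With the GC trend removed, 0 of the 12 were higher and 4 lower, and their median was -0.12. By edgeR without adjustment 7 of the 12 had a p below 0.05, against 39.2% of all genes. At the study's thresholds ZEB2 was higher and SNAI3 lower, 16.7% of the 12 against 4.68% of all genes tested. ZEB2, the relative of ZEB1, was counted 16, 12 and 15 times in NC and 41, 26 and 15 times with RAC3. RAC3 sample 3 thus lay within the range of the controls, and the adjusted p was 0.0945 for a log2 fold change of 0.86 (edgeR). The ZEB2 call was lost with DESeq2, with the GC trend removed and without negative control 2, negative control 3, RAC3 sample 1 or RAC3 sample 2, and without RAC3 sample 1 the log2 fold change was 0.53. SNAI3, a further SNAI factor, had 52, 28 and 42 counts against 9, 14 and 24, a log2 fold change of -1.4 (adjusted p = 0.0115, edgeR), which was 0.072 without negative control 1 and 0.074 without RAC3 sample 1.

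Among 41 tested mesenchymal effector genes, which include VIM, FN1 and CDH2, 4 were higher and 18 lower with an adjusted p below 0.05. The shares of all genes were 13.3% and 15.3%, and the median log2 fold change of the list was -0.14. With library size alone as the scaling, the split was 7 higher and 13 lower and the median -0.09. That scaling moved the median of all genes to 0.06 and the split of all genes from 1717 higher and 1974 lower to 2613 and 1381. With the GC trend removed, the split of the list was 5 higher and 15 lower and its median -0.12. The study's thresholds were passed by 7.32% of the list and by 4.68% of all genes tested. TNC, the matrix protein tenascin C, was higher from a low level, with 28, 17 and 19 counts in NC against 48, 61 and 51 with RAC3 (log2 fold change 1.27, adjusted p = 0.00344, edgeR). PDGFRB, a receptor of mesenchymal cells, passed the study's thresholds at a log2 fold change of -0.71 with an adjusted p of 0.0573 (edgeR). It did not pass without negative control 1, at -0.56, or without RAC3 sample 1, at -0.64, nor with the GC trend removed, at -0.58.

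In the TGF beta pathway, whose signals through SMAD proteins induce EMT in many epithelia, 4 genes were higher and 16 lower among 34 tested at an adjusted p below 0.05 (13.3% and 15.3% of all genes), with a median log2 fold change of -0.14. With library size scaling the split was 8 higher and 13 lower, and with the GC trend removed it was 2 higher and 11 lower. The genes past the study's thresholds were TGIF2 and SMAD9, 5.88% of the list against 4.68% of all genes tested. TGIF2, a corepressor of SMAD-driven transcription, had 41.8, 33.4 and 37.1 CPM in the negative controls and 23.9, 21.0 and 21.8 CPM in the RAC3 samples, without overlap (log2 fold change -0.75, adjusted p = 5.39e-06, edgeR). SMAD9, which carries BMP signals, had 12.8, 10.4 and 13.2 CPM against 8.1, 7.59 and 7.31 CPM (log2 fold change -0.66, adjusted p = 0.00112, edgeR). Among the rest, and named after their values were seen, the receptors TGFBR1 and TGFBR2 were higher, at log2 fold changes of 0.29 and 0.30, while the ligand TGFB1 was lower, at -0.33, and the inhibitor SMAD7 at -0.39.

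Of 19 tested adherens junction and desmosome genes, 4 were higher and 4 lower at an adjusted p below 0.05, with a median of -0.04, and 0 passed the study's thresholds in edgeR, limma-voom, DESeq2 or edgeR's exact test, while 10 had an unadjusted p below 0.05 in edgeR, against 39.2% of all genes. At an adjusted p below 0.05, 13.3% of all genes tested were higher and 15.3% lower, and 4.68% passed the study's thresholds (edgeR). In this list with library size scaling, 5 were higher and 3 lower and 2 passed the study's thresholds. Of all genes, 296 higher and 315 lower passed them with that scaling. In turn, 1 passed without negative control 1, negative control 3, RAC3 sample 2 or RAC3 sample 3. With the GC trend removed, 3 genes of the list were higher and 2 lower. The smallest p there beside CDH2 was that of NECTIN3, an immunoglobulin-like adhesion molecule of adherens junctions. It had 27.9, 31.2 and 35.7 CPM in the negative controls and 47.3, 45.0 and 49.1 CPM in the RAC3 samples (log2 fold change 0.57, adjusted p = 3.99e-05, edgeR), beside 0.56 for CDH2.

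Among 25 tested tight junction genes, OCLN was the 1 gene that was higher with an adjusted p below 0.05, and 9 were lower, with a median of -0.01. The shares of all genes tested at that threshold were 13.3% higher and 15.3% lower. With library size scaling 5 of the 25 were higher and 8 lower, and with the GC trend removed 0 were higher and 5 lower. CLDN3, a claudin that seals epithelia, was the 1 gene past the study's thresholds, 4% of the list against 4.68% of all genes tested. It had 18.6, 19.3 and 18.6 CPM in the negative controls and 8.95, 11.7 and 10.7 CPM in the RAC3 samples. The groups were well apart (log2 fold change -0.85, adjusted p = 1.81e-05, edgeR), so CLDN3 was lower while CLDN1, its far more abundant relative, was not detectably changed.

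Of 26 tested epithelial factors and genes that ZEB factors repress, 3 were higher and 8 lower at an adjusted p below 0.05, with a median of -0.06. The shares of all genes tested were 13.3% and 15.3%. The split of the list was 6 and 6 with library size scaling. With the GC trend removed it was 3 higher and 5 lower, and the median was 0.03. The study's thresholds were passed by 11.5% of the list and by 4.68% of all genes tested. KLF4, a factor that maintains epithelial identity, had 13.8, 15.7 and 16.8 CPM in the negative controls and 28.7, 22.9 and 27.4 CPM in the RAC3 samples, without overlap (log2 fold change 0.76, adjusted p = 2.33e-05, edgeR). GRHL2 and OVOL1, further epithelial factors, passed the study's thresholds at log2 fold changes of 1.11 and -1.27 but rested on at most 40 and 17 counts in a sample, with adjusted p of 0.0659 and 0.0501 (edgeR). GRHL2 was counted 8, 9 and 13 times in NC and 40, 16 and 12 times with RAC3. Its call was lost without RAC3 sample 1, where the log2 fold change was 0.52, and without negative control 1 or 2, and that of OVOL1 without negative control 1 or RAC3 sample 1, at -1.10 and -1.06.

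**Figure D5:**
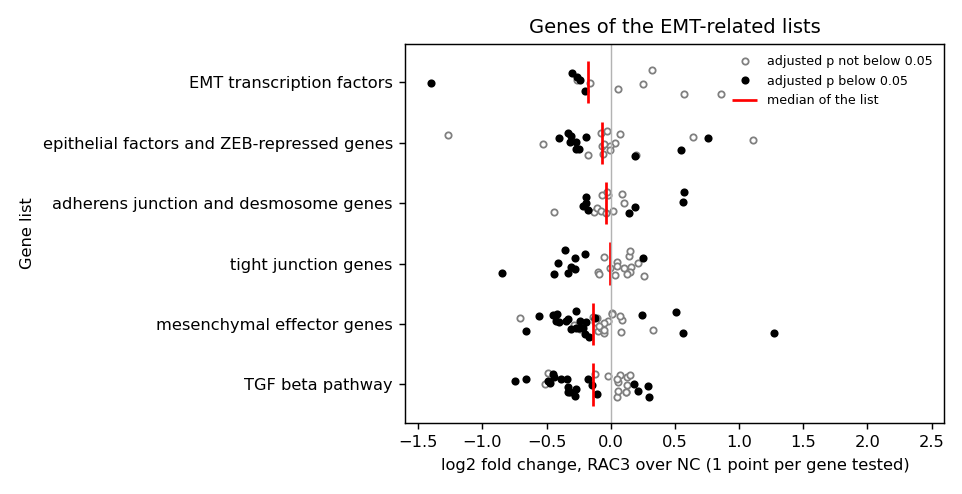
The log2 fold change of RAC3 over NC (x axis) of every tested gene of the 6 EMT-related lists (y axis), 1 point per gene, filled where the adjusted p is below 0.05, with the list's median as a red line. The medians lie between -0.18 and -0.01, and points lie on both sides of 0 in each list.

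Over all 6 lists without the 10 members, 144 genes were tested. At the study's thresholds 4 were higher and 7 lower, which is 7.64% against 4.68% of all genes tested, and with an adjusted p below 0.05 there were 13 higher and 57 lower, against 1717 higher and 1974 lower of all genes (28.5%). As given above, scaling by library size alone moved that split of all genes to 2613 and 1381. With the GC trend removed, the split of all genes was 1169 and 1476. The members and the lists were described, not tested as sets.

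Other marker lists were measured beside these results. The summed level of 10 fibroblast and stellate cell markers was 240.8 to 257.4 CPM in the negative controls and 280.9 to 291.9 CPM in the RAC3 samples. At an adjusted p below 0.05 (edgeR), 2 of the 7 tested were higher and 1 was lower. Those higher were COL1A2 (log2 fold change 0.51) and LUM (0.22, and 0.04 with the GC trend removed, where its call was lost). THY1 was at 0, and DCN and ACTA2 were too low to be tested. By sign alone, 3 of the 7 were higher and 4 lower, with a median log2 fold change of -0.12. PDGFRB, named above, was among the lower ones at -0.71 (adjusted p = 0.0573, edgeR). What part these markers had in the rise of CDH2 was not tested. The 6 cholangiocyte markers summed to 966.5 to 986.1 CPM in the controls and 793.4 to 852.1 CPM with RAC3, with 2 of 5 tested higher and 2 lower. The leukocyte markers summed to 43.3 to 50.7 against 40.9 to 42.1 CPM (1 of 3 tested higher, 1 lower) and the endothelial markers to 2.53 to 3.15 against 2.7 to 3.76 CPM (0 of 1 tested at an adjusted or unadjusted p below 0.05 in edgeR). The 10 hepatocyte and Huh-7 markers summed to 5617.6 to 5681.6 and 5142.4 to 5663.9 CPM, with 3 higher and 3 lower. At that threshold, an adjusted p below 0.05 in edgeR, 13.3% of all genes tested were higher and 15.3% lower.

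Hypoxia-induced genes were listed because earlier results of these data had shown them to be high in negative control 1, so their values are a description. Of the 9 tested, 8 were lower with RAC3 at an adjusted p below 0.05 (edgeR), against 15.3% of all genes. With the NC mean of each gene set to 0, the median of the 9 tested was 0.31, -0.06 and -0.24 on the log2 scale in negative controls 1, 2 and 3 and between -0.63 and -0.55 in the RAC3 samples. Without negative control 1, the log2 fold changes of CDH2, FN1, VIM and OCLN were 0.59, -0.40, -0.33 and 0.24, with the largest adjusted p at 0.0029 for OCLN (edgeR). Leaving it out does not remove the hypoxia difference, since the medians of controls 2 and 3 also lay above those of all RAC3 samples. Whether the members changed with the hypoxia-induced genes was not tested.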

How the data were processed

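Polyadenylated RNA of 6 Huh-7 samples (3 RAC3, 3 NC) was sequenced on an Illumina instrument. The authors deposited whole-number read counts for each gene, the matching FPKM and their own group means of FPKM (not used here). The submitters' processing notes name Bowtie2 2.2.8, HISAT2, StringTie 1.3.1 and DESeq2; the counting tool, genome build and lengths behind FPKM are not given in the sources used here. Samples were grouped by title.

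The counts were fitted with edgeR 4.0.16 (R 4.3.3). The filterByExpr function left 12941 of 20332 genes, TMM scaled the libraries, and RAC3 was compared with NC by the two-sided quasi-likelihood F test without covariates, and p-values were adjusted by Benjamini-Hochberg over all tested genes. Standard errors and 95% intervals were computed from the F statistic. The common biological coefficient of variation was 0.0533. The members, lists and tests were chosen with earlier results of these data known. Named genes are the members, RAC3, from each list the genes past the study's thresholds (at most 4 in each direction, or the smallest p where none passed), the markers, and the 3 genes nearest in pattern to the member with the smallest p. A list gene that the rule names is not reported here. Alternatives were DESeq2 1.42.0 and its size factors, limma-voom 3.58.1, edgeR's exact test, other scalings and filters, GC trends of GENCODE release 29 transcripts (lowess span 0.3, 12863 genes), a replicate term, left-out samples and other thresholds. The steps were tested on simulated data. E-box letters were searched in RefSeq promoter sequences.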

Additional observations from a re-analysis of the deposited data

How the results depend on the processing

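The number of members past the study's thresholds was 0. It was 1, CDH2, with library size alone as the scaling, and 0 to 1 when samples were left out in turn (1 without NC replicate 1 and without RAC3 replicate 3). It was 4 when an adjusted p below 0.05 alone was asked, which drops the fold threshold. The number with an adjusted p below 0.05 was 4 and stayed between 3 and 6 over all alternatives, with CDH2, FN1 and VIM among them each time. OCLN was lost with the GC trend removed, at 0.11 with and without the replicate block (adjusted p 0.12 and 0.11). With library size alone, CLDN1 was at 0.11 with an adjusted p of 0.044. The direction turned for CDH1 with library size alone (0.04) and without NC replicate 2 or RAC3 replicate 2 (0.02 each), and for CLDN1 with the GC trend removed, with or without the replicate block (-0.07). Among the 153 tested genes of the EMT-related lists, 11 passed the study's thresholds, 7.19% against 4.68% of all genes tested. The number was 74 at an adjusted p below 0.05 with no fold threshold (48.4% against 28.5%). It was 4 at a fold change of 2, and both follow from the thresholds. With library size alone it was 16, where 296 of all genes were higher and 315 lower. It was 8 to 14 when a sample was left out. The 8 came without RAC3 replicate 1 (all genes: 206 higher, 362 lower) and the 14 without RAC3 replicate 3 (216 and 409). The difference of the CDH1 to CDH2 ratio lay between -0.60 and -0.48. Deviations of same-numbered samples had correlations of -0.0873, -0.0455 and -0.0207 over 11221 genes, so replicate numbers were not taken as pairs. With the replicate block 4 members had an adjusted p below 0.05 and 11 list genes passed. Apart from the threshold changes, the causes were not tested.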
